A study of Mus musculus with 5 samples.

Results

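The respiratory chain genes described here are the nuclear genes for subunits of mitochondrial complexes I to V, together with cytochrome c and a few factors that share their symbols. Members were chosen by gene symbol (those starting with Nduf, Uqcr or Atp5, Sdha to Sdhd, Cox4 to Cox8 with a letter, and Cyc1 and Cycs), which found 89 of the 13004 listed genes. By their known roles, 35 encode complex I subunits, 4 complex II, 9 complex III, 14 complex IV and 15 complex V, 1 encodes cytochrome c, and 11 are related factors that are not structural subunits. Ndufa4 is named for complex I but is known as a complex IV subunit, and it was counted there.

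RNA came from splenic natural killer (NK) cells, lymphocytes that kill infected or transformed cells, sorted as live CD3-, NK1.1+, DX5+ cells from C57BL/6 mice aged 8 weeks. The 2 MycKO libraries (replicates 5 and 6) came from mice of the genotype Mycdelta/delta/Ncr1Cre, in which Cre recombinase under Ncr1 control removes Myc in NK lineage cells, and the 3 Control libraries (replicates 1, 2 and 3) from Mycf/f mice, whose label names no Cre. Effects of Cre and of Myc deletion therefore cannot be told apart. Nothing in the labels ties a library to its own mouse, and p-values here rest on the spread between libraries, which may be technical.

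The respiratory chain sits in the inner mitochondrial membrane. Complexes I and II pass electrons from NADH and succinate to ubiquinone, complex III passes them on to cytochrome c, and complex IV gives them to oxygen, while complex V, the ATP synthase, uses the proton gradient so built to make ATP. MYC is known to drive genes of mitochondrial growth in many proliferating cells, and the MycKO and Control libraries were compared for transcripts that differ with its deletion in NK cells. Core membrane subunits of complexes I, III, IV and V are encoded by mitochondrial DNA, and the 13 such genes were not analysed here.

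Values are RPKM, reads divided by transcript length and by the library total. Reads in listed genes came to 5451728 in MycKO 5 and 13337084 in MycKO 6, and to 15050801, 17610826 and 14290690 in Controls 1, 2 and 3, so MycKO 5 carried the most counting error. Myc itself was at 12.5 and 8.70 RPKM in MycKO 5 and 6, against 12.98, 22.97 and 21.24 RPKM in Controls 1, 2 and 3, a log2 fold change of -0.77 with a limma adjusted p of 0.297; reads from any exon outside the deleted part are included, so this value does not check the deletion. NK cell markers were well detected, with summed levels of 9707 and 11442 RPKM in the MycKO libraries, against 12329 to 14354 RPKM in the controls. Of the 10 NK markers, none passed limma and 6 were lower at an unadjusted p under 0.05, while 3 were called lower in limma-voom and 4 in the authors' deposited test. Several marker lists for other cells of the spleen held genes that rose in MycKO. Myeloid markers (9 of 11 called higher in limma, as for the next lists) summed to 1895 and 1301 RPKM, against 232 to 428 RPKM in controls, and T cell markers (3 of 6 tested called higher) to 120 and 176 RPKM, against 14.6 to 33.0 RPKM. B cell markers (1 of 6) summed to 334 and 670 RPKM, against 82.9 to 135 RPKM, erythroid and platelet markers (2 of 5) to 197 and 90.1 RPKM, against 4.29 to 9.55 RPKM, and basophil and mast cell markers (none of 4 in limma or limma-voom, 2 and 1 at an unadjusted p under 0.05, and 1 called in the authors' deposited test) to 47.8 and 8.38 RPKM, against 1.84 to 4.64 RPKM. Among the most abundant markers, Car1 (log2 fold change 5.09), Cd3g (2.53) and Jchain (2.85) passed limma, with adjusted p-values of 0.00506, 0.00776 and 0.0327, while Lyz2 (1.86) and Mcpt8 (3.54) did not. Mcpt8, which marks basophils, was at 0 in all 3 controls. Ncr1 itself was at 632.8 and 744.1 RPKM in MycKO, against 1619, 930.8 and 1243 RPKM in Control (-0.84, adjusted p = 0.143 in limma). Their part in the results below was not tested. In bulk RNA, fewer cells of a type and less RNA per cell cannot be told apart.

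None of the 89 respiratory chain genes differed between MycKO and Control at an adjusted p under 0.05 in limma, against 1.34% of the 11190 genes tested (1.24% higher and 0.0983% lower in MycKO). limma-voom on whole reads called none either, against 2.09% of all genes, and the authors' deposited test called none, against 3.67%. At an unadjusted p under 0.05, 10 members differed in limma (13.2% of all genes), 6 in limma-voom (12.5%) and 2 in the authors' deposited table (11.3%). All 10 in limma were higher in MycKO, which is 11.2% of the members, beside 9.83% of all genes that were higher and 3.35% that were lower at that level. With median-of-ratios scaling, 5 members were higher and 1 was lower at that level. Without that scaling, the log2 fold change was above 0 for 68 of the 89, or 76.4%, against 57.1% of all genes. Both MycKO libraries lay above all 3 controls for 14 members, or 15.7%, against 18.8% of all genes, and below them for 2, Ndufaf1 and Atp5h, or 2.25%, against 10.4% of all genes. The shares that were higher at an unadjusted p under 0.05 or without overlap lay near those of all genes. The share with a log2 fold change above 0 lay above that of all genes, and the share that was lower without overlap lay below it.

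For most members the intervals lay within a 2-fold change either way, a range that is wide beside the medians below. Of the 89, 79 had a limma 95% confidence interval wholly between -1 and 1 on the log2(RPKM + 1) scale, as did 7299 of the 11190 genes tested. Of the 78 subunits (cytochrome c included) the lowest lower bound was -0.64 (Cox6b2). These limits depend on the fit. With a pseudocount of 0.1, 77 of the 89 intervals lay within those bounds. In limma-voom, 68 of the 89 did, and the lowest bound in complex IV was -1.82. The members' median log2 fold change was 0.11, beside 0.05 for all genes tested, and 56 of 89 members lay above that all-gene median (55 with median-of-ratios scaling). By complex, the medians were 0.18 for I, 0.01 for II, 0.12 for III, 0.10 for IV and 0.03 for V. With median-of-ratios scaling the medians of complexes II (-0.04) and V (-0.02) were below 0, while those of I, III and IV stayed above it. The related factors had a median of -0.03.

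**Figure D1:**
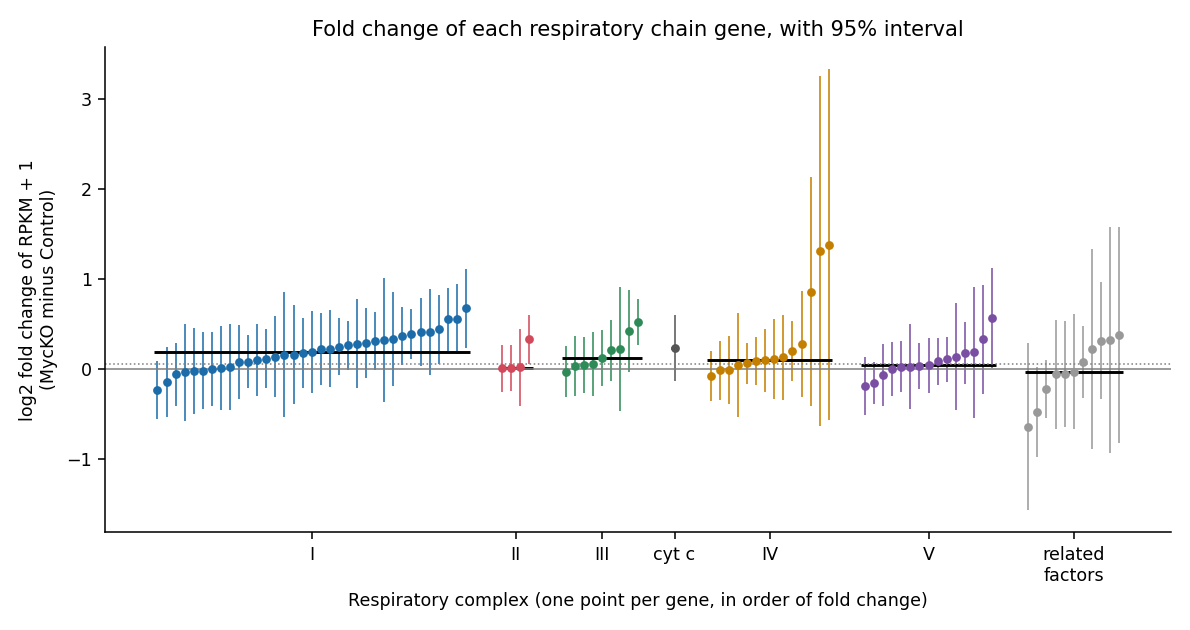
Log2 fold change of RPKM + 1 (MycKO minus Control, vertical axis) for each of the 89 genes, grouped by complex along the horizontal axis. Whiskers are limma 95% confidence intervals, thick black lines the medians of each complex, and the dotted line the median of all genes tested (0.05). Most points lie between 0 and 0.4, and the widest intervals belong to the low-level complex IV genes Cox6b2 and Cox7a1.

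In level, respiratory chain subunits ranked high among NK cell transcripts. Ordered by mean RPKM over the 5 libraries, the members' median stood at the 89.5th percentile of the genes tested, with medians of 96.3 for complex IV, 96.1 for complex V, 92.9 for complex III, 91.6 for complex II and 87.1 for complex I. The related factors stood at 48.4. The spread within a complex was widest in complex IV, where mean RPKM differed 109-fold between Cox4i1 (283 RPKM) and Cox6b2 (2.59 RPKM), and smallest in complex II, where Sdha (85.7 RPKM) and Sdhc (61.5 RPKM) differed 1.39-fold.

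**Figure D2:**
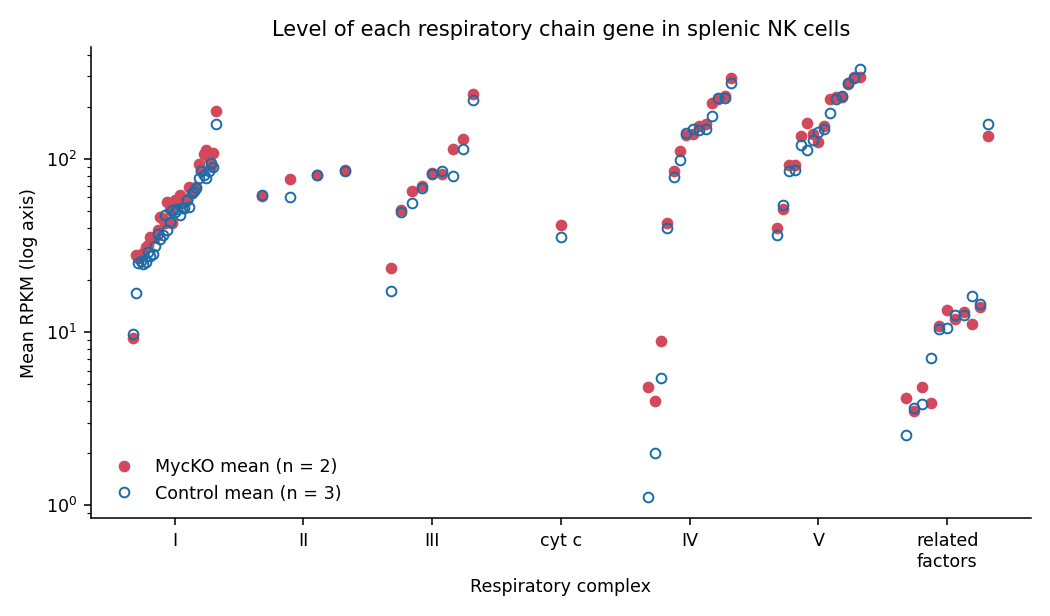
Mean RPKM (log axis) of each gene in MycKO (filled, n = 2) and Control (open, n = 3), grouped by complex and ordered by level. Filled and open points of most genes lie close together, less so at the lowest levels. The 3 lowest genes of complex IV stand well below the other 11.

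Some of the low levels go with the length that the authors divided by. The length behind each RPKM value was at least 2 times the median protein-coding transcript of the gene in GENCODE vM21 for 6 members. Ndufa11, the lowest complex I subunit at 9.52 RPKM, was divided by 2662 bases although its median coding transcript has 545, and Uqcrq, the lowest of complex III at 19.7 RPKM, by 1737 although its median transcript has 504. For other members the length was far below that median, as for Ndufb2 (455 bases against 2413), Ndufab1 (800 against 2447.5) and Atp5g1 (873 against 2675.5). The levels per length of all these genes depend on that choice of length. Exons of 24 of the 88 members found in that annotation overlap another gene, 22 of them one on the other strand, and since no source used here states whether strand was used in counting, their values may include a neighbour's reads. Many respiratory chain genes are also known for processed pseudogenes, between which reads may have been divided.

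Promoters were read for what the members share beyond their symbols. RefSeq promoters on GRCm38.p6 (250 bases before to 50 after a start site) were found for 75 of the 89 members, 81 promoters in all. NRF1, a transcription factor known for respiratory chain genes, has a palindromic motif, searched on both strands as GCGC and TGCGC with any 1 base between them. It stood in 23.5% of the members' promoters, against 10.4% of promoters of the genes tested and 4.60% of all promoters. The YY1 motif AAGATGGCG stood in 12.3%, against 3.23% and 1.40%, or by gene in 12% of members and 3.91% of genes tested. Of its 10 matches, 8 lay after the start site of the promoter read. The same Atp5sl site was matched in overlapping promoters, before a start (-53) and after another (26). This motif was shortened after matches of a longer form had been seen. For CACGTG, the E-box to which MYC binds with its partner MAX, the share was 11.1%, against 10.2% and 7.15%. Counted by gene, since some members have overlapping promoters that hold the same site, it was 9.33% of members and 12.0% of genes tested, so the order of these E-box shares turns with the counting. The ETS motif CCGGAAGT stood in 6.17%, against 8.75% and 3.89%. No matches of different motifs overlapped in a member. These shares are a description and were not tested.

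E-box sites of some of the 7 members that hold one are shown, because Myc is the deleted gene. Those of Atp5f1, Atp5g3 and the related factor Atp5sl (log2 fold change -0.07) are not shown. Each stretch is written in the direction of transcription, with the motif in capitals, and lies before the start site of the promoter read. The first is Ndufa7 (chr17:33824485-33824520, plus strand), then Ndufv1 (chr19:4012904-4012939, minus strand), Atp5g1 (chr11:96075655-96075690, minus strand) and Atp5l (chr9:44920869-44920904, minus strand). The Atp5g1 stretch lies inside the RefSeq span of its gene, which begins at 96075694 on that strand, so it is not before the outermost start.
Ndufa7: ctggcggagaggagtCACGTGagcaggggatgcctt
Ndufv1: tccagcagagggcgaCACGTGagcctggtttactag
Atp5g1: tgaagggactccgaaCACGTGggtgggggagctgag
Atp5l: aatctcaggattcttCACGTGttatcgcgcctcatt
The 7 members with an E-box in the promoter had log2 fold changes of -0.07 to 0.31, with a median of 0.08. None of them passed limma. In Ndufa7 the difference was 0.31, in Ndufv1 0.08, in Atp5g1 0.13 and in Atp5l 0.02.

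The NRF1 motif is shown for genes of complexes I, II, IV and V with its letters in capitals. The stretches lie at chr17:56717687-56717726 (plus strand) for Ndufa11, and on the minus strand at chr9:50603904-50603943 for Sdhd, chr5:115349096-115349135 for Cox6a1, chr15:102671065-102671104 for Atp5g2 and chr5:108434425-108434464 for Atp5k.
Ndufa11: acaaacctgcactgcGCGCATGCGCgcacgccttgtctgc
Sdhd: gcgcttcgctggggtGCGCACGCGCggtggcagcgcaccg
Cox6a1: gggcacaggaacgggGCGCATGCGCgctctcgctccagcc
Atp5g2: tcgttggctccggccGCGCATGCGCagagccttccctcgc
Atp5k: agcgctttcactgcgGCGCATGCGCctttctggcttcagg
Genes with this motif had both the highest log2 fold change of complex V (Atp5k, 0.56, and 0.30 without Control 2) and the lowest (Atp5g2, -0.19). The 18 members that hold it had a median of 0.08. A match is a run of letters and not a measured binding site.

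Complex I, the NADH dehydrogenase, had the highest median of the complexes. Its 35 subunits summed to 2124 and 2099 RPKM in MycKO 5 and 6, against 1982, 1718 and 1824 RPKM in Controls 1, 2 and 3, a ratio of means of 1.15. Both MycKO sums lay above every control sum. No subunit passed limma, limma-voom or the authors' deposited test. At an unadjusted p under 0.05, 7 were higher in MycKO in limma (20%, against 9.83% of all genes). In limma-voom 4 of the 35 were, beside 1086 of the 11190 genes tested. In the authors' deposited test 2 of the 35 differed at that level, beside 11.3% of all genes, so the limma excess was not seen in every test. The groups did not overlap for 9, all higher in MycKO (25.7%, against 18.8% of all genes). With median-of-ratios scaling the sums were 2069 and 2033 RPKM in MycKO, against 2014, 1729 and 1829 RPKM in Control, still without overlap.

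Within complex I, the 7 nuclear core subunits, which carry the iron-sulfur clusters and the flavin, had a median of 0.08, and the 28 accessory subunits a median of 0.23. These classes also differ in length. The shortest core gene, Ndufs7, had 758 bases, while several accessory genes had under 600. Members under 600 bases had a median of 0.21, and of 0.07 without Control 2. The part of length in this contrast was not tested. Among core subunits, the highest value belonged to Ndufs3, at 73.1 and 65.0 RPKM in MycKO, against 38.7, 57.2 and 62.2 RPKM in Controls 1, 2 and 3 (log2 fold change 0.41). Ndufs7, which holds an iron-sulfur cluster next to the ubiquinone site, had the lowest value of the complex, at 45.0 and 39.9 RPKM against 51.3, 55.3 and 44.8 RPKM (-0.24). MycKO 5 lay above Control 3 for Ndufs7, so the groups overlapped. The flavin-bearing subunit gene Ndufv1 was nearly level, at 39.4 and 38.3 RPKM in MycKO and 39.9, 35.1 and 35.6 RPKM in Control (0.08).

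Of the 28 accessory subunits, 7 were higher in MycKO at an unadjusted p under 0.05 in limma (25%, against 9.83% of all genes). None of the 7 core subunits reached that level. Ndufb8, a subunit of the membrane arm (chromosome 19, 44548571 to 44555442), was at 32.7 and 22.9 RPKM in MycKO, against 15.8, 17.9 and 16.9 RPKM in Control. Its log2 fold change of 0.67 (SE 0.19) was the largest of complex I, with a limma adjusted p of 0.168. The controls lay within a narrow range, and the MycKO libraries differed more from each other than the controls did, with 0.42 without MycKO 5. Its exons overlap Gm20538 on the same strand. Ndufa10 (chromosome 1, 92439486 to 92473825) was at 55.0 and 58.2 RPKM in MycKO, against 37.1, 33.9 and 45.0 RPKM in Control, a difference of 0.55 (SE 0.15, adjusted p = 0.158 in limma). Here both MycKO libraries were alike and above every control.

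Other accessory subunits with no overlap between the groups were Ndufa1 (0.55), Ndufs4 (0.44), Ndufs6 (0.38), Ndufb2 (0.36), Ndufa7 (0.31) and Ndufb7 (0.26). Ndufs4 and Ndufs6, which help to hold the NADH-binding arm in place, had limma adjusted p-values of 0.315 and 0.214. The most abundant complex I gene, Ndufa3, was at 194 and 182 RPKM in MycKO, against 200, 116 and 160 RPKM in Control (0.28, adjusted p = 0.69 in limma, and 0.069 without Control 2). Control 1 was the highest library of all and Control 2 the lowest, so the groups overlapped. The acyl carrier gene Ndufab1, which also serves mitochondrial fatty acid synthesis, was at 26.6 and 26.7 RPKM against 28.3, 31.7 and 14.95 RPKM (0.15).

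**Figure D3:**
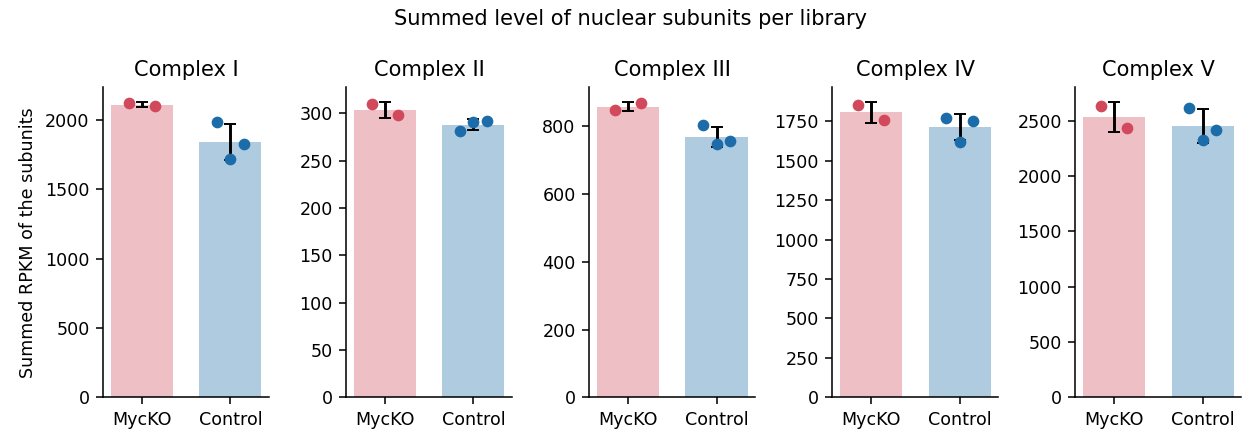
Summed RPKM of the nuclear subunits of each complex, with a point for each library, bars at the group mean and whiskers of 1 SD (MycKO n = 2, Control n = 3). MycKO sums lie above all controls for complexes I, II and III, and overlap them for complexes IV and V.

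Complex II, succinate dehydrogenase, is the enzyme that the chain shares with the citrate cycle, and all of its subunits are nuclear. The flavoprotein gene Sdha was at 87.3 and 84.5 RPKM in MycKO, against 90.8, 79.1 and 86.8 RPKM in Control. The iron-sulfur subunit gene Sdhb was at 85.4 and 75.5 RPKM, against 77.3, 80.0 and 83.4 RPKM. The differences were 0.01 for Sdha and 0.00 for Sdhb on the log2 scale, with limma 95% intervals of -0.25 to 0.27 for Sdha and -0.26 to 0.26 for Sdhb, and 2 scalings turned these small differences below 0. In MycKO, Sdhb stood at 93.6% ± 5.99 of Sdha (SD, n = 2), against 94.2% ± 8.25 in Control (SD, n = 3).

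The membrane anchors of complex II are encoded by Sdhc and Sdhd, whose fold changes were not tested against each other. Sdhc was at 60.2 and 62.3 RPKM in MycKO, against 49.0, 76.0 and 60.0 RPKM in Control (0.01). Sdhd (chromosome 9, 50596340 to 50603849) was at 76.7 and 75.6 RPKM in MycKO, against 64.7, 55.4 and 61.9 RPKM in Control (0.33, SE 0.12, unadjusted p = 0.0245 and adjusted p = 0.283 in limma). Both MycKO libraries lay above every control for Sdhd alone. As a sum, complex II came to 310 and 298 RPKM in MycKO, against 282, 290 and 292 RPKM in Control, and with median-of-ratios scaling MycKO 6 stood at 289 RPKM, between Control 1 (286 RPKM) and Control 2 (292 RPKM). None of its 4 genes passed limma, limma-voom or the authors' deposited test. At an unadjusted p under 0.05, 1 of the 4 differed in limma (13.2% of all genes did) and none in limma-voom (12.5%).

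Complex III, the cytochrome bc1 complex, held the member with the smallest adjusted p in limma. Uqcr10, a small subunit (Entrez 66152, chromosome 11, 4701968 to 4704344, RefSeq on GRCm38.p6, as for the other genes placed here), was at 109 and 120 RPKM in MycKO, against 84.9, 78.1 and 76.3 RPKM in Control. Its means were 115 ± 7.66 RPKM (SD, n = 2) and 79.8 ± 4.56 RPKM (SD, n = 3). The log2 fold change was 0.52 (SE 0.11), which in limma gave an adjusted p of 0.0789 (unadjusted p = 0.00182). Both MycKO values lay above all controls, by more than the spread within either group, but the gene did not pass over all genes tested. In limma-voom the difference was 0.55 with an adjusted p of 0.28, and in the authors' deposited table it was 0.46 with an adjusted p of 0.55. In both of these tests Ndufa10 and Ndufb8 had smaller adjusted p-values, 0.215 and 0.232 in limma-voom, and 0.368 and 0.148 in the authors' deposited table.

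The groups overlapped for all 4 core genes of complex III. Cyc1, which encodes cytochrome c1, was at 78.4 and 61.8 RPKM in MycKO, against 70.6, 59.0 and 72.9 RPKM in Control (0.05). The Rieske iron-sulfur protein gene Uqcrfs1 was at 55.7 and 45.8 RPKM, against 45.9, 52.3 and 49.5 RPKM (0.04). For the core protein gene Uqcrc2 the value was -0.04, and for Uqcrc1 it was 0.02. The 4 core genes had a median of 0.03, and the 5 small accessory genes a median of 0.22, with all 5 above 0. No core gene had a length under 600 bases, but all of the accessory genes except Uqcrq did. Members of that length had a median of 0.21, and of 0.07 without Control 2. The part of length in this contrast between core and small accessory subunits was not tested.

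Among these small subunits, Uqcrh, the hinge protein that helps cytochrome c to dock, was the most abundant gene of the complex. It was at 221 and 253 RPKM in MycKO, against 208, 250 and 199 RPKM in Control (0.12). Uqcrq, a subunit beside cytochrome b, was at 26.3 and 20.5 RPKM, against 14.3, 18.8 and 18.6 RPKM (0.42, SE 0.19, adjusted p = 0.421 in limma), with no overlap. Uqcrb also showed no overlap, with MycKO at 131 and 130 RPKM and Control at 127, 94.6 and 122 RPKM (0.20). Summed over its 9 genes, complex III came to 848 and 867 RPKM in MycKO, against 803, 749 and 756 RPKM in Control. None of the 9 passed limma, limma-voom or the authors' deposited test. At an unadjusted p under 0.05, 1 of the 9 differed in limma (13.2% of all genes did) and 1 in limma-voom (12.5%).

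Cytochrome c, the soluble carrier between complexes III and IV that also triggers apoptosis when released, is encoded by Cycs. It was at 38.2 and 44.6 RPKM in MycKO, against 37.6, 30.1 and 38.3 RPKM in Control. MycKO 5 and Control 3 were alike and the groups overlapped. Its log2 fold change of 0.23 (SE 0.16) did not pass limma (adjusted p = 0.648).

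**Figure D4:**
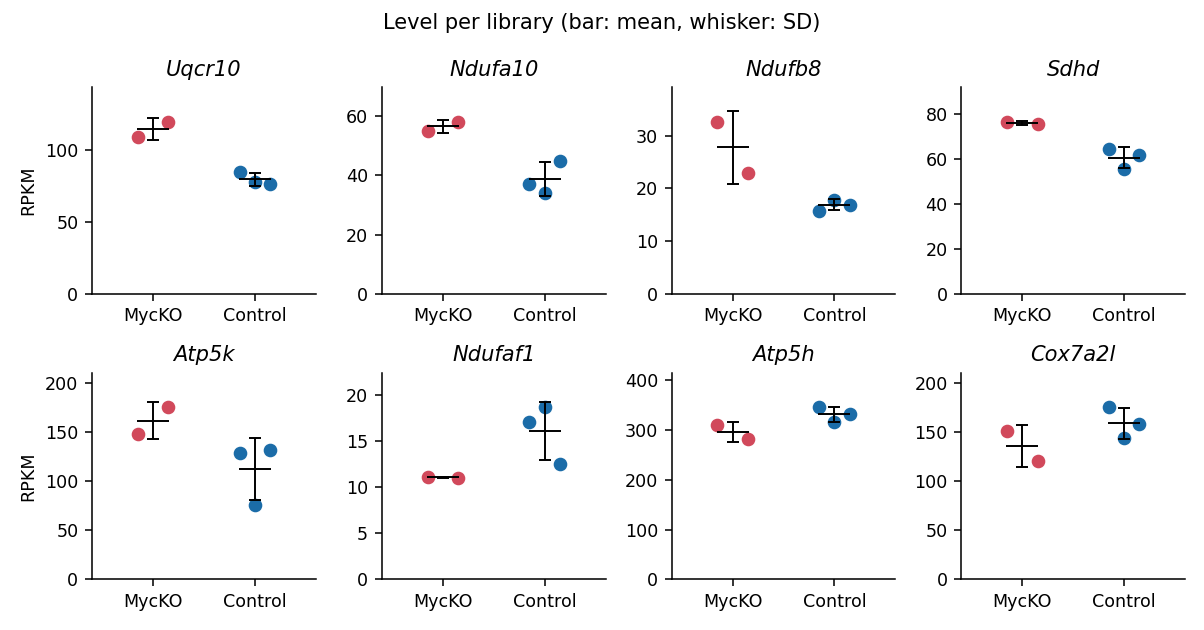
RPKM per library of 8 genes in MycKO (left, n = 2) and Control (right, n = 3), with the mean and SD. MycKO points lie above all controls for Uqcr10, Ndufa10, Ndufb8, Sdhd and Atp5k, and below all controls for Ndufaf1 and Atp5h, while for Cox7a2l they overlap. None of these genes passed the test over all genes.

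Complex IV, cytochrome c oxidase, has nuclear subunits with tissue isoforms, and the common isoforms dominated in these cells. Cox4i1, its most abundant gene and the form found in most tissues, was at 314 and 272 RPKM in MycKO, against 290, 283 and 255 RPKM in Control (0.09). Cox6b1 was at 234 and 230 RPKM, against 238, 217 and 216 RPKM (0.06), and its 95% interval of -0.17 to 0.29 was among the narrowest of the complex. Ndufa4 was at 194 and 251 RPKM, against 251, 189 and 235 RPKM (-0.02). In each of these genes the libraries of both groups were interleaved.

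Isoforms known from heart, skeletal muscle or testis were low. Cox6a2, the heart and muscle form, was at 10.3 and 7.39 RPKM in MycKO, against 2.52, 11.2 and 2.65 RPKM in Control, where its ubiquitous partner Cox6a1 was at 143 and 137 RPKM, against 136, 167 and 144 RPKM. Cox6a2 thus stood at 7.19% and 5.41% of Cox6a1 in MycKO, and at 1.85%, 6.72% and 1.84% in Control. Control 2 stood apart from the other controls here, as high as the MycKO libraries. Exons of Cox6a2 overlap those of Itgad, an integrin gene on the other strand.

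Cox7a1, the muscle form, was at 4.51 and 3.48 RPKM in MycKO (9 and 17 reads), against 5.99 RPKM in Control 1 (33 reads) and no read in Controls 2 and 3. Cox7a2, the form of most tissues, was at 70.7 and 99.2 RPKM, against 80.3, 64.7 and 90.0 RPKM (0.11). Cox6b2, the testis form, was at 8.73 and 0.875 RPKM in MycKO (53 and 13 reads), against 3.10, 0 and 0.251 RPKM in Control. The fitted log2 fold changes of Cox7a1 (1.38) and Cox6b2 (1.31) are the highest among the members, but their intervals reach from -0.57 to 3.32 and from -0.64 to 3.25. Neither gene passed limma (adjusted p = 0.582 and 0.612).

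Of the other complex IV genes, Cox8a, the only form of that subunit listed, was at 244 and 177 RPKM in MycKO, against 233, 126 and 174 RPKM in Control (0.27, and 0.047 without Control 2). Cox5a and Cox5b, which flank the catalytic core, were at -0.02 and 0.04. The complex summed to 1853 and 1760 RPKM in MycKO, against 1771, 1617 and 1751 RPKM in Control, and MycKO 6 lay between the controls. None of its 14 genes passed limma, limma-voom or the authors' deposited test or had an unadjusted p under 0.05 in any of them, and no gene showed groups without overlap (18.8% of all genes higher and 10.4% lower).

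Complex V, the ATP synthase, differed little in its catalytic F1 head. Atp5b, which encodes the catalytic beta subunit, was at 304 and 290 RPKM in MycKO, against 292, 318 and 266 RPKM in Control (0.03). The alpha subunit gene Atp5a1 was at 247 and 206 RPKM, against 214, 242 and 211 RPKM (0.02). Within a library, Atp5b stood at 132% ± 12.5 of Atp5a1 in MycKO (SD, n = 2) and at 131% ± 5.23 in Control (SD, n = 3). The 5 F1 genes spanned -0.08 to 0.08 with a median of 0.02, and the groups overlapped for every one of them.

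The Fo motor and stalk genes were more variable. Atp5h, the stalk subunit d gene and the most abundant gene of the complex, was at 311 and 282 RPKM in MycKO, against 346, 316 and 333 RPKM in Control (-0.16, SE 0.10, adjusted p = 0.612 in limma). Both MycKO libraries lay below all controls, by a small margin. Atp5k, which encodes the small membrane subunit e at the dimer interface (chromosome 5, 108433246 to 108434399), was at 148 and 175 RPKM in MycKO, against 129, 75.8 and 132 RPKM in Control (0.56, SE 0.24, adjusted p = 0.376 in limma). Control 2 was far below the other controls for Atp5k, and without it the log2 fold change was 0.30.

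The proton-carrying c-ring is built from a subunit encoded by Atp5g1, Atp5g2 and Atp5g3, whose products are known to differ in the import peptide that is cut off. Atp5g3 was at 173 and 135 RPKM in MycKO, against 145, 160 and 143 RPKM in Control. Atp5g2 was at 141 and 110 RPKM, against 156, 136 and 135 RPKM (-0.19), and Atp5g1 at 48.7 and 31.6 RPKM, against 39.3, 43.7 and 26.6 RPKM (0.13). Of the summed level of these genes, Atp5g1 made up 13.4% and 11.4% in MycKO, against 11.6%, 12.9% and 8.73% in Control, so it was the least of them in every library. Complex V as a whole summed to 2628 and 2435 RPKM in MycKO, against 2617, 2323 and 2412 RPKM in Control. None of its 15 genes passed limma, limma-voom or the authors' deposited test. At an unadjusted p under 0.05, 1 of the 15 differed in limma (13.2% of all genes did) and 1 in limma-voom (12.5%).

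The 11 related factors were mostly of low level, except Cox7a2l, which helps to join complexes III and IV in supercomplexes. Cox7a2l was at 151 and 121 RPKM in MycKO, against 175, 144 and 158 RPKM in Control (-0.23, SE 0.14, adjusted p = 0.578 in limma). MycKO 5 lay between the controls. Of the 8 Ndufaf genes, which encode assembly factors of complex I, Ndufaf1 (chromosome 2, 119655446 to 119662839) had the smallest p, at 11.1 and 11.1 RPKM in MycKO, against 17.1, 18.7 and 12.5 RPKM in Control (-0.48, SE 0.21, adjusted p = 0.393 in limma). Its libraries did not overlap, and Control 3 lay close to the MycKO level. None of the 11 passed limma, limma-voom or the authors' deposited test or had an unadjusted p under 0.05 in limma or limma-voom.

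Part of the spread among these genes lay between the controls. Control 2 was the lowest of the 5 libraries for 37 of the 89 members, against 6 for MycKO 5, 14 for MycKO 6, 13 for Control 1 and 19 for Control 3. Among the 26 members with a length under 600 bases, Control 2 lay below the mean of the other controls by a median of 0.26 on the log2(RPKM + 1) scale (value -0.26), and among 155 genes of that length and of like level (members included, at or above the tenth percentile of the members) by -0.11. Atp5j, the stalk subunit F6 gene, was at 101 and 84.1 RPKM in MycKO 5 and 6, against 49.7 RPKM in Control 2, where Control 1 had 109 RPKM and Control 3 had 97.6 RPKM. Exons of Atp5j overlap those of Gabpa on the other strand. Without Control 2, the median log2 fold change of these short members was 0.07, against 0.21 with it, and among all genes of that length and level it was -0.05, against 0.03 with it. Long members showed a like shift: of the 32 with 1200 bases or more, Control 2 was the lowest library for 16, and it was the lowest for 22.5% of all genes of that length and level, with a median of -0.13 against 0.01. Members of 600 to 1200 bases showed no such shift beyond other genes. Control 2 was the lowest for 8 of these 31 (25.8%), against 29.8% of all genes of that length and level, with medians of -0.033 and -0.037.

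**Figure D5:**
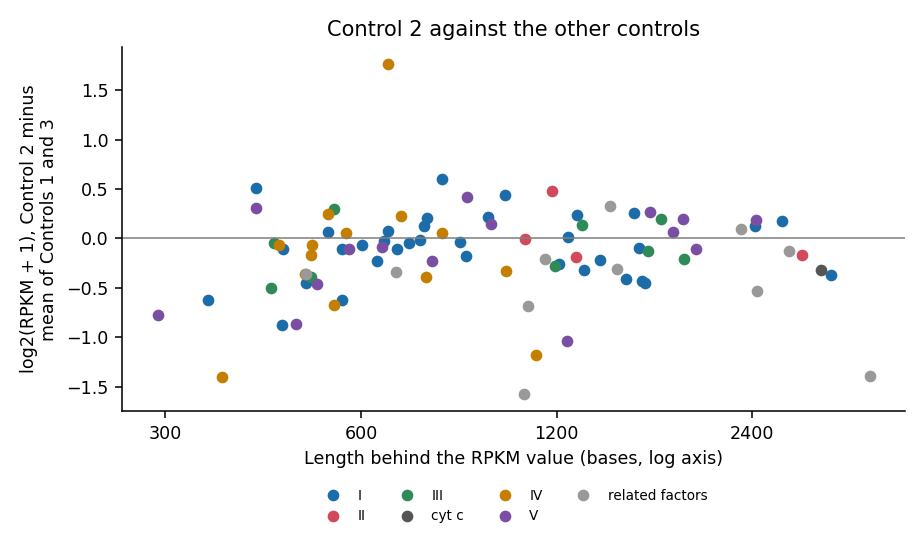
Difference between Control 2 and the mean of Controls 1 and 3 on the log2(RPKM + 1) scale (vertical axis) against the length behind the RPKM value (bases, log axis), with a point for each of the 89 genes coloured by complex. The 26 genes under 600 bases have a median of -0.26, and the highest point is Cox6a2 at 1.77.

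Genes that build and feed the chain were listed apart. Of 44 tested assembly factors of complexes I to V outside the member list, limma, limma-voom and the authors' deposited test called none. An unadjusted p under 0.05 was reached by 3 in limma (13.2% of all genes did) and by 1 in limma-voom (12.5%). The median was 0.09 over a range of -0.88 to 0.75, with Coa7 at 1.27 and 0.912 RPKM in MycKO, against 4.06, 1.84 and 2.97 RPKM in Control (-0.88), and Tmem126a at -0.35. Of 17 regulators of mitochondrial biogenesis and mitochondrial DNA expression, none passed limma or limma-voom. The median was 0.17, and 1 of the 17 had an unadjusted p under 0.05 in limma (13.2% of all genes did). This was Gabpa, which encodes the DNA-binding subunit of an ETS factor known for respiratory chain promoters, at 21.9 and 23.7 RPKM in MycKO, against 30.8, 30.5 and 28.7 RPKM in Control (-0.38, adjusted p = 0.271 in limma). Polrmt, the mitochondrial RNA polymerase gene, was at -0.70.

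Of 14 citrate cycle genes, none passed limma or limma-voom, none had an unadjusted p under 0.05, and the median was 0.02. Mdh2, malate dehydrogenase, was at 121 and 94.1 RPKM in MycKO, against 98.4, 85.0 and 72.4 RPKM in Control (0.33), and Suclg2, a succinyl-CoA ligase subunit, was at -0.28. Mitochondrial ribosomal proteins, which make the mitochondrially encoded subunits, had a median of 0.08 over 78 genes. None passed limma or limma-voom. At an unadjusted p under 0.05, 10 of the 78 differed in limma (13.2% of all genes did), 6 higher and 4 lower, so the count lay near that of all genes. In limma-voom 5 did (12.5% of all genes), and in the authors' deposited test 1 did (11.3%). The smallest p-values in limma were those of Mrpl43 (0.66) and Mrps23 (-0.51). The respiratory chain median of 0.11 was close to the 0.08 of the ribosomal proteins, and the difference between these lists was not tested.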

How the data were processed

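Sequencing gave single reads from dUTP-stranded libraries of NK cell RNA, per the labels' protocols. The submitters' processing notes name TopHat, edgeR and the build mm10, with no role or version. The authors' deposited table gives, for 13004 genes, a value per sample taken as RPKM, mean normalized signal per group, a ratio (fold change), its log2 value and p-values from a test that the file headers do not name.

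Whole reads were worked out from RPKM and group means (100% of values within 0.0001 of a read) and used for depth and limma-voom. In place of the planned count test, log2(RPKM + 1) was fitted with limma 3.58.1 in R 4.3.3 over all 5 libraries with a variance trend. Genes were kept where 2 or more libraries reached 1 RPKM, which left 11190, all 89 members among them. Tests were two-sided, with Benjamini-Hochberg adjustment over all genes tested and a threshold of 0.05. The fit was tested on simulated data. Fold changes are MycKO minus Control on that scale, which understates changes of low genes.

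Alternatives were another pseudocount (0.1), no filter, a stricter filter (5 reads scaled to the library total), median-of-ratios and upper-quartile scaling, limma-voom, the authors' deposited test and leaving out each library. Promoters and coordinates were RefSeq's on GRCm38.p6, and exon overlaps came from GENCODE vM21. The YY1 motif was shortened after matches of a longer form had been seen. Figures used matplotlib 3.10.9. Members and lists were chosen with earlier results of these data known. The rule for naming took, in each complex, the highest and lowest level and fold change and the 2 smallest p, all of complex II, Cycs, Cyc1, paralogues, the Ndufaf gene and the 2 genes of each list with the smallest p, Myc, Ncr1 and the most abundant marker of each other cell type. Other genes were named after their values were seen.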

Additional observations from a re-analysis of the deposited data

How the results depend on the processing

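No respiratory chain gene passed in any of the 12 alternatives, with the smallest adjusted p among them between 0.0609 and 0.321. Over all genes, the main count of 150 changed was 80 with a pseudocount of 0.1, 234 in limma-voom, 411 in the authors' deposited test, and 34 (without MycKO 5) to 217 (without Control 2) when 1 library was left out; it was 39 without Control 1, 35 without Control 3 and 54 without MycKO 6. Without MycKO 5 or MycKO 6, the lone MycKO library is assumed to vary like the controls. The median of complex I stayed above 0 throughout (0.13 to 0.25). That of complex II was -0.042 with median-of-ratios scaling, -0.033 with upper-quartile scaling and -0.057 in the authors' deposited test, and 0.011 to 0.086 with 1 library left out. With 1 library left out, complex III ranged from 0.069 to 0.20 and complex IV from 0.063 to 0.20, and complex V turned, from -0.013 without Control 3 to 0.092 without MycKO 6.

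Of 368 values of the 31 named members under alternatives, 326 kept their direction and 42 turned. With median-of-ratios scaling, Sdha (-0.045), Sdhb (-0.052), Sdhc (-0.040), Atp5g3 (-0.018) and Cyc1 (-0.0039) turned, and with upper-quartile scaling Sdha (-0.035), Sdhb (-0.042), Sdhc (-0.030) and Atp5g3 (-0.0088). In limma-voom, Atp5g1 (-0.021), Atp5g3 (-0.021), Sdhb (-0.027), Cyc1 (-0.0017) and Ndufa4 (0.058) turned. The authors' deposited test had Sdha at -0.055, Sdhb at -0.060, Sdhc at -0.069, Atp5g3 at -0.020, Cyc1 at -0.011 and Cox6b1 at -0.0058. With 1 library left out, the ranges were -0.17 to 0.43 for Atp5g1, -0.14 to 0.21 for Atp5g3, -0.016 to 0.19 for Cox4i1, -0.13 to 0.35 for Cox7a2, -0.12 to 0.22 for Cyc1, -0.20 to 0.050 for Ndufa11, -0.20 to 0.17 for Ndufa4, -0.047 to 0.052 for Sdha, -0.087 to 0.089 for Sdhb, -0.14 to 0.17 for Sdhc and -0.11 to 0.030 for Uqcrc2. Others kept their sign but moved by over 1.5 times, with ranges of -0.37 to -0.0098 for Atp5g2, -0.23 to -0.090 for Atp5h, 0.30 to 0.70 for Atp5k, -0.15 to -0.0031 for Cox6a1, 0.54 to 1.44 for Cox6a2, 0.043 to 0.50 for Cox8a, -0.39 to -0.068 for Cox7a2l, 0.12 to 0.34 for Cycs, 0.069 to 0.46 for Ndufa3, 0.42 to 0.92 for Ndufb8, -0.33 to -0.16 for Ndufs7, 0.022 to 0.22 for Uqcrh, 0.25 to 0.59 for Uqcrq, 0.033 to 0.10 for Cox6b1, 0.91 to 2.50 for Cox6b2 and 0.91 to 2.31 for Cox7a1. The cause was not tested. No paired analysis was possible because the groups share no replicate number. MycKO 5 had the fewest reads, which limits low genes most.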
